A study of Mus musculus with 4 samples.

Results

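The Kruppel-like factor genes Klf2, Klf3, Klf4, Klf5, Klf6, Klf7, Klf10 and Klf13 were followed in melanocyte stem cells, which renew the pigment cells of the hair, sorted from mouse skin by flow cytometry. These 8 genes were selected by name from the 27933 genes in the count tables, and all 8 passed the filter on low counts that left 13348 genes for testing. RNA was sequenced from 2 groups of mice, a stressed group injected with RTX (n = 2 libraries) and a control group injected with saline (n = 2 libraries). RTX is not spelled out in the labels, and cells were harvested 12 h after injection. Strain, age, sex, sort gate and the number of mice behind a library are not given in the sources used here, so p-values reflect only how far these libraries spread, and that spread may be technical. With 2 libraries against 2, an exact permutation test of 1 value, two-sided, cannot go below p = 0.333.

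Kruppel-like factors are transcription factors that bind CACCC boxes and related GC-rich boxes in DNA through zinc fingers at their carboxy terminus, while their amino-terminal parts differ and recruit different partners. KLF2, KLF4, KLF5, KLF6 and KLF7 are mostly described as activators, KLF3 as a repressor that works through the CtBP corepressors, and KLF10 and KLF13 as repressors that bind SIN3. Several of these genes are immediate early genes, transcribed within minutes of growth factor, mechanical or stress signals, and KLF4 and KLF5 are well known from the epidermis, where KLF4 acts in the differentiating layers and KLF5 in the basal layer.

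None of the 8 genes passed the test between stressed and control cells, and for most of them the 2 control libraries lay further apart than the groups did. For Klf3 and Klf4 both stressed libraries were below both control libraries, which also held for 22.9% of all tested genes. Klf2, Klf6 and Klf7 were more than 2 times as high in one control library as in the other, and the sign of their difference between the groups depended on which control library was used. Klf6 was by far the most abundant of the 8 per length of transcript in all 4 libraries.

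Levels are given as CPM, read counts scaled by the TMM-adjusted library total, to compare 1 gene between libraries. To compare genes with each other they are given as RPKM, which is CPM per kilobase of exonic length in the files. Library totals ran from 9273652 to 11854280 assigned reads. The limit that 0 counts allow, 3 counts, is 0.254 to 0.321 CPM, for counting error only. The least abundant member in any library was Klf7, with 315 counts in control replicate 1. Melanocyte markers were abundant in every library, with a sum over 10 genes of 41017 and 38521 CPM in stressed replicates 1 and 2 and of 23591 and 22861 CPM in control replicates 1 and 2. The sum over 16 keratinocyte markers was 10652 and 8970 CPM in the stressed libraries and 26783 and 16834 CPM in the control libraries. Of the 7 endothelial markers 2 were at 0 in all 4 libraries, and their sum was between 6.38 and 13.1 CPM. The 7 immune cell markers found in the files summed to 5.91 and 7.46 CPM in stressed libraries and to 8.14 and 40.2 CPM in control libraries. The 7 fibroblast markers summed to 25.2 and 12.8 CPM in stressed libraries and to 6.21 and 17.4 CPM in control libraries.

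Klf6 had 304.5 ± 41.8 RPKM in stressed cells and 349.6 ± 220.4 RPKM in control cells (SD, n = 2 each), and ranked 83 among the 13348 tested genes in both groups. It made up 58.1% and 56.1% of the summed RPKM of the 8 genes in stressed replicates 1 and 2, and 44.1% and 64.5% in control replicates 1 and 2. Klf5 came next with 68.4 ± 0.857 RPKM in stressed cells and 69.3 ± 9.42 RPKM in control cells. In stressed cells Klf2 (47.2 ± 4.42 RPKM) followed, and the ranges of Klf10 (34.9 ± 6.04 RPKM) and Klf4 (28.5 ± 5.16 RPKM) overlapped, so that their order is not set. Klf13 (22.03 ± 0.0452 RPKM), Klf3 (17.5 ± 0.941 RPKM) and Klf7 (9.20 ± 0.448 RPKM) were the lowest, with ranges that did not overlap. In control cells Klf2 had 67.3 ± 48.1 RPKM, a range that took in those of Klf5, Klf4 and part of that of Klf10. The control range of Klf10 also overlapped those of Klf4 and Klf3, and that of Klf3 overlapped that of Klf13, and Klf7 was again the lowest with 6.82 ± 3.77 RPKM. The Klf7 RPKM is likely too low, because 39.3% of its exonic bases are shared with Gm26649, a gene on the opposite strand with 0 counts in all 4 libraries. Counting did not use strand, and the recorded command has no option to count reads that overlap more than 1 gene. Reads over the shared bases were then left out, while RPKM divides by the full exonic length. The place of Klf7 as the lowest rests on this value.

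**Figure D1:**
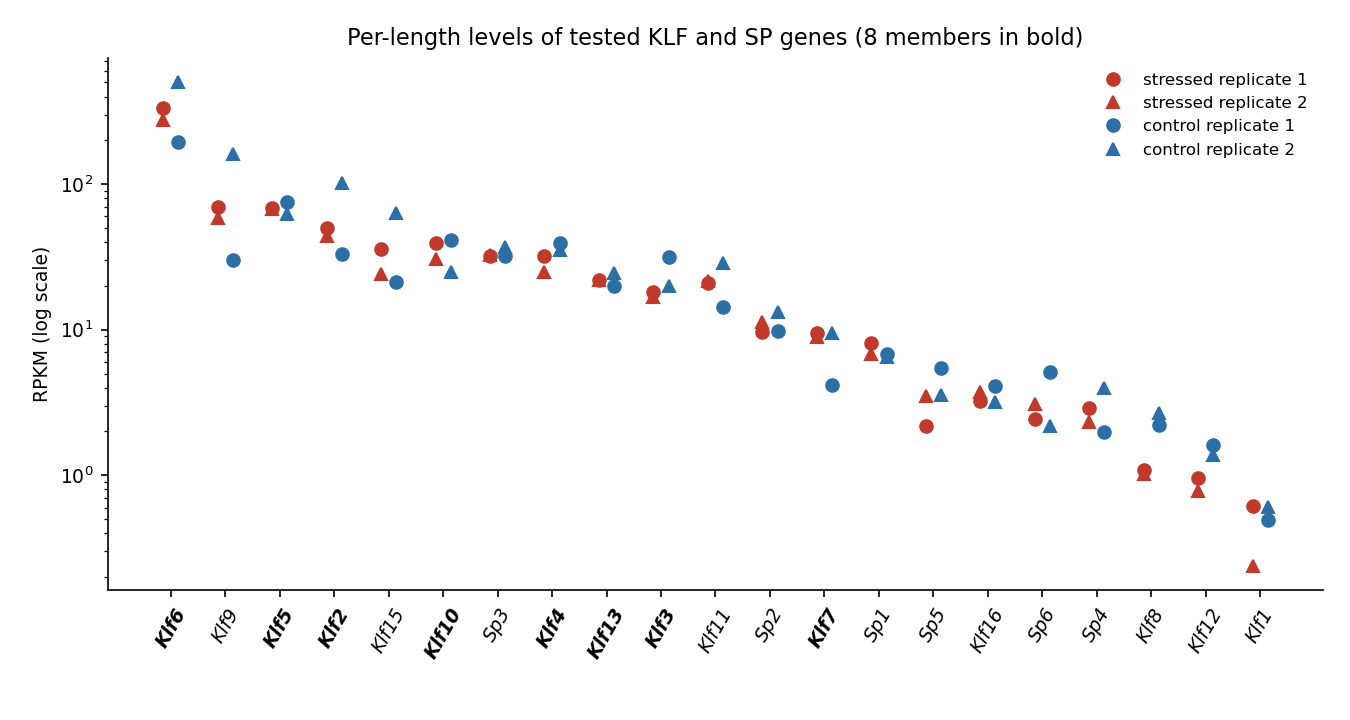
RPKM on a log axis for the 21 KLF and SP genes that passed the filter on low counts, in order of their mean, with each library as a point (circle, replicate 1; triangle, replicate 2) and the 8 described genes in bold. Klf6 lies above all others in every library, and control replicate 2 lies far above control replicate 1 for Klf6, Klf9, Klf2 and Klf15.

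The stressed over control comparison was made with edgeR's quasi-likelihood test over all 13348 genes, with Benjamini-Hochberg adjustment and a threshold of 0.05. No member was called (0 of 8), against 0% of all tested genes, and none had an unadjusted p below 0.05, against 12.8% of all tested genes. DESeq2 called 0 of 8, against 4.41% of all tested genes, and limma-voom called 0 of 8, against 0% of all tested genes. In 2 of the 8 genes both stressed libraries lay below both control libraries and in 0 above, while 22.9% of all tested genes separated in the lower direction and 21.8% in the higher. The median log2 fold change of the 8 was -0.11, with 6 lower and 2 higher, beside a median of -0.0091 over all tested genes. The median of the 8 lay between -0.22 and 0.0036 with 1 library left out, over edgeR and DESeq2. Summed over the 8 genes, stressed replicates 1 and 2 had 2286 and 1954 CPM and control replicates 1 and 2 had 1794 and 3097 CPM, so both stressed sums lay between the control sums.

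**Figure D2:**
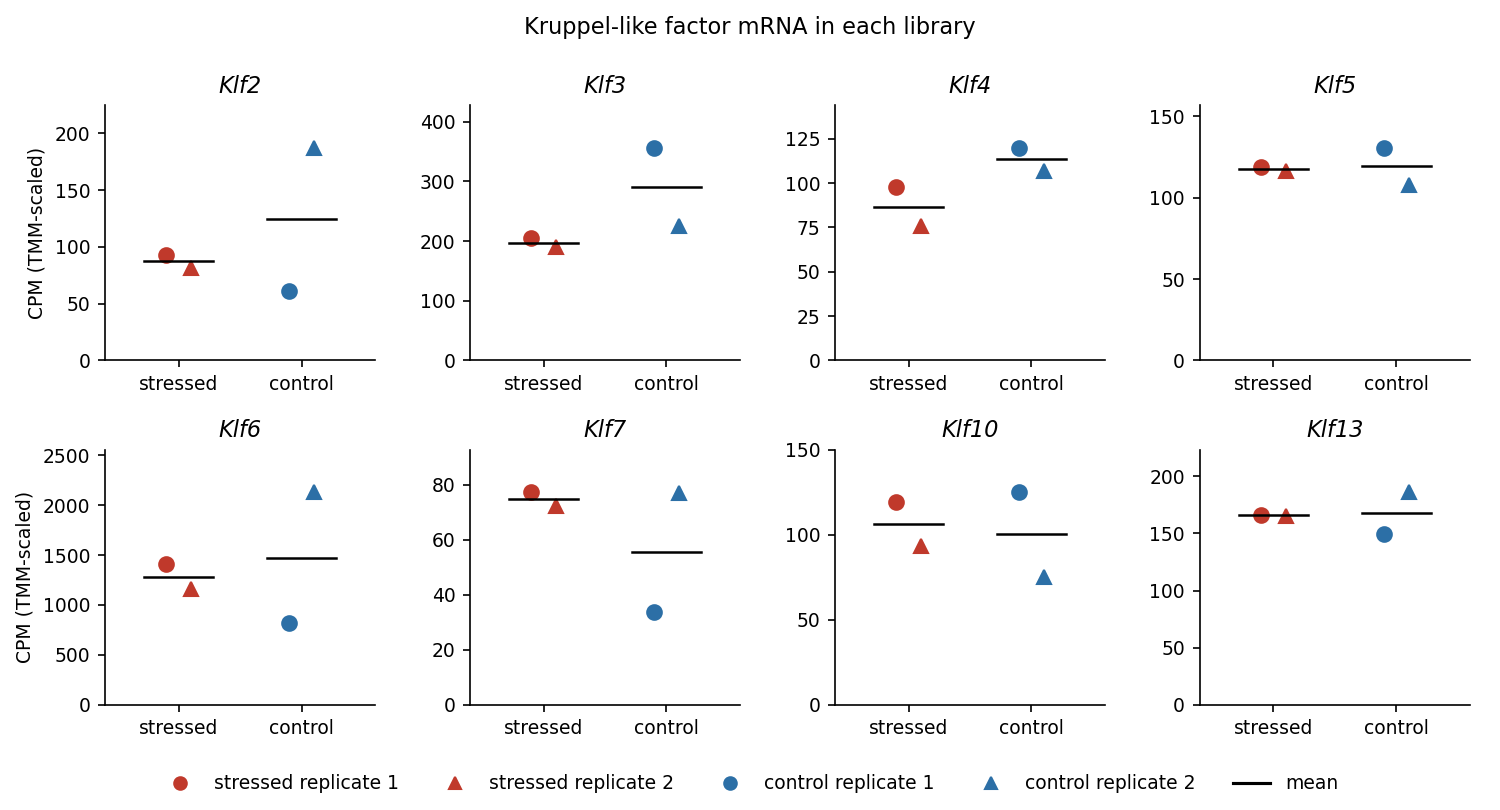
CPM of each of the 8 genes in each library, stressed on the left and control on the right, with the group mean as a bar; each panel starts at 0 and has its own scale. Klf3 and Klf4 separate the groups, in the lower direction, as 22.9% of all tested genes do. The control pair is widely split for Klf2, Klf6 and Klf7.

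For 7 of the 8 genes, all but Klf4, the control pair was further apart than the stressed pair. Klf2, Klf6 and Klf7 were more than 2-fold apart in the control pair, which held for 14.8% of all tested genes, and 0 of the 8 were that far apart in the stressed pair, against 9.15%. Both stressed libraries lay inside the range of the control pair for 5 of the 8, namely Klf2, Klf5, Klf6, Klf10 and Klf13, against 18.8% of all tested genes. Control replicate 2 was the higher one for 4 of the 8. All 8 had a lower CPM in stressed replicate 2 than in stressed replicate 1, against 49.99% of all tested genes, with log2 ratios from -0.37 for Klf4 to -0.0042 for Klf13.

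**Figure D3:**
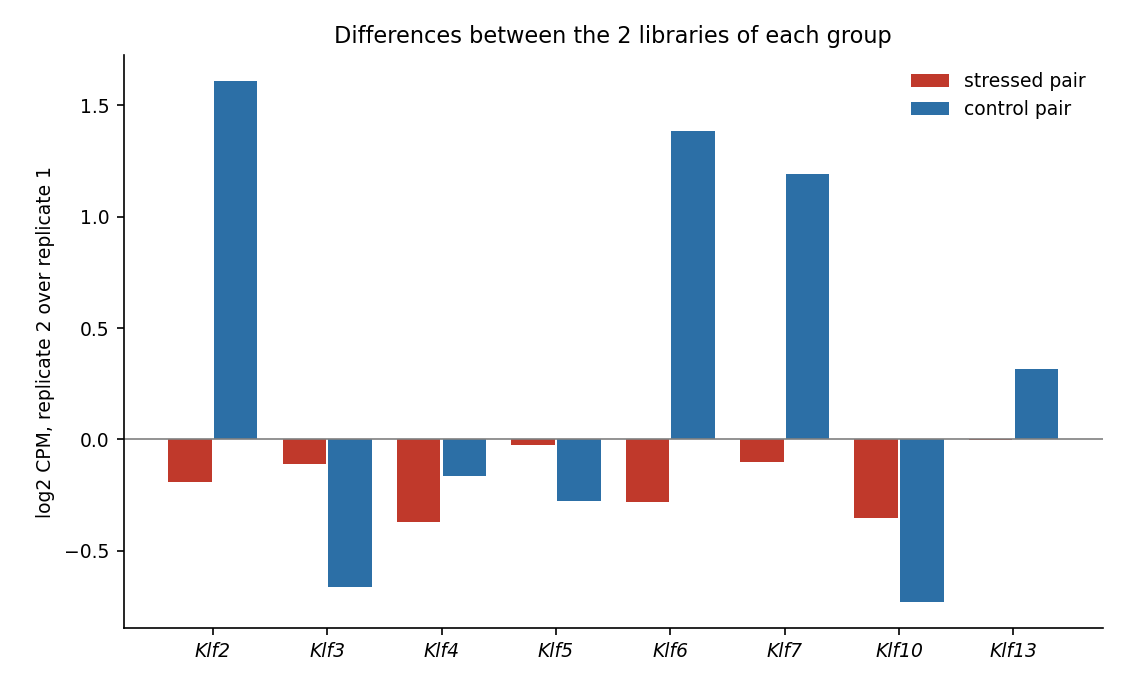
Log2 ratio of CPM in replicate 2 over replicate 1 for each gene, in the stressed pair (red) and the control pair (blue). The control pair differs by 1.61, 1.38 and 1.19 for Klf2, Klf6 and Klf7, and the stressed pair by at most 0.37 in size for any of the 8.

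The promoter sequences of 4 members are shown, those of the 2 genes that separated the groups (Klf3, Klf4) and of the 2 whose profiles over the libraries were the most alike among the 8 (Klf2, Klf6). They are RefSeq sequences of GRCm38.p6, the assembly also called mm10, each 300 bases from 250 before to 50 after an annotated start site and written 5′ to 3′ on the strand of the gene. Entries were found for 6 of the 8 genes, all but Klf5 and Klf10. Capitals mark CACCC boxes (CACCC), GC boxes (GGGCGG) and the MEF2 site, read on either strand, and boxes that touch or overlap run together. The Klf2 window lies at chr8:72318812-72319111, plus strand, the Klf3 window at chr5:64803271-64803570, plus strand, the Klf4 window at chr4:55532426-55532725, minus strand, and the Klf6 window at chr13:5861239-5861538, plus strand.
Klf2: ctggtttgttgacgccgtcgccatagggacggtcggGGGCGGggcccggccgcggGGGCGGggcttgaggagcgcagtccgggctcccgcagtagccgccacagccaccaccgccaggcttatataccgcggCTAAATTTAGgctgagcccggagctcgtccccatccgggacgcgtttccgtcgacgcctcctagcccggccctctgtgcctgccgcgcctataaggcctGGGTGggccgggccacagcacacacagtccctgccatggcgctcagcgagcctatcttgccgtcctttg
Klf3: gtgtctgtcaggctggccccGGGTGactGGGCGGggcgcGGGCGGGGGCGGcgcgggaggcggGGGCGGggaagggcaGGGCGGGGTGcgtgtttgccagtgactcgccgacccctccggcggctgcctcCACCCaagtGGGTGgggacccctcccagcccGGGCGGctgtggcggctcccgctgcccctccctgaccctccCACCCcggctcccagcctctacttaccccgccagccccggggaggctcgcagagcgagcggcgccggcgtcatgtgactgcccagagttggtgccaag
Klf4: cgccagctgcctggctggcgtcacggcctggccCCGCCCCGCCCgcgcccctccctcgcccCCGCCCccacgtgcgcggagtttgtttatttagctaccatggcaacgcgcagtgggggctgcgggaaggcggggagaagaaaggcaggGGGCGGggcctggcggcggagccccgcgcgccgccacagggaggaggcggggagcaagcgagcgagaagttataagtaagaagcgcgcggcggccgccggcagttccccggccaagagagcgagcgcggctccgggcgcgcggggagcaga
Klf6: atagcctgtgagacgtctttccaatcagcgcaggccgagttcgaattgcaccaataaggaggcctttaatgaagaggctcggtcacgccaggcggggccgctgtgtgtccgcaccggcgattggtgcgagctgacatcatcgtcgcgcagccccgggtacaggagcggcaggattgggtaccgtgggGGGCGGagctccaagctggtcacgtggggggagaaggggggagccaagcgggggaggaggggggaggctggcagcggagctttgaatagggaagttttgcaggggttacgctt

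All 4 windows were rich in G and C, at 69.3% for Klf2, 76.7% for Klf3, 74.3% for Klf4 and 63% for Klf6, beside a median of 52.7% over 32851 promoters of the same length. Klf3 held 5 CACCC boxes and 6 GC boxes, Klf4 held 0 and 4, Klf2 held 1 and 2, and Klf6 held 0 and 1. A CACCC box was present in 57.5% and a GC box in 35.7% of all promoters. The MEF2 site of the Klf2 window ran from -118 to -109 relative to the start site. MEF2 sites are where MEF2 proteins bind, factors through which the ERK5 kinase is known to induce Klf2 in endothelial cells, and such a site was present in 3.19% of all promoters. The MEF2 search was added after the sequences were seen. The core of cAMP-responsive elements (TGACG, contained in the full site) was present once each in Klf2, Klf3, Klf4 and Klf13 and in 20.8% of all promoters. The full site (TGACGTCA), the AP-1 site (TGAGTCA), the CArG box bound by SRF and the TATA box (TATAAA) were found in 0 of the 6 member windows, and in 1.79%, 5.2%, 1.63% and 13.6% of all promoters. These matches describe the letters in the windows and no binding was measured.

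Klf6 (chromosome 13, 5861489-5870393, mm10), an immediate early gene whose protein activates growth-restraining genes in several tissues, had 1409 and 1160 CPM in stressed replicates 1 and 2, and 817 and 2131 CPM in control replicates 1 and 2. Both stressed values lay between the control values. The log2 fold change was -0.20 with a standard error (SE) of 0.44 and a 95% interval from -1.26 to 0.87, at an edgeR adjusted p of 0.908. Without control replicate 1 it was -0.72 by edgeR and -0.73 by DESeq2. Without control replicate 2 it was 0.66 by edgeR and 0.66 by DESeq2. The sign thus followed from which control library remained.

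Klf2 (chromosome 8, 72319033-72321656), known for its induction by fluid flow in endothelial cells and for quiescence in lymphocytes, followed the same order of libraries. It had 92.9 and 81.4 CPM in the stressed libraries and 61.4 and 187 CPM in the control libraries. The stressed pair again lay inside the control range. The log2 fold change was -0.51 (SE 0.47), with an interval from -1.66 to 0.63 (edgeR adjusted p = 0.721). It was -1.09 without control replicate 1, where edgeR called it (adjusted p = 0.00633), and 0.51 without control replicate 2 (adjusted p = 0.228). Klf2 and Klf6 had the smallest distance of the 28 pairs of members, 0.30 between their centred log2 CPM profiles. Endothelial markers, named because Klf2 is abundant in that cell type, were low as given above, with 2 of the 7 at 0 in all 4 libraries.

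Klf7 (chromosome 1, 64029447-64122282), known from the development of mouse sensory neurons, had 77.4 and 72.2 CPM in stressed cells, against 33.7 and 77.1 CPM in control cells. Control replicate 1 stood apart from the other 3 libraries. The log2 fold change was 0.43 (SE 0.37), with an interval from -0.47 to 1.33 (edgeR adjusted p = 0.701). Without control replicate 2 it was 1.15, and without control replicate 1 it was -0.031.

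**Figure D4:**
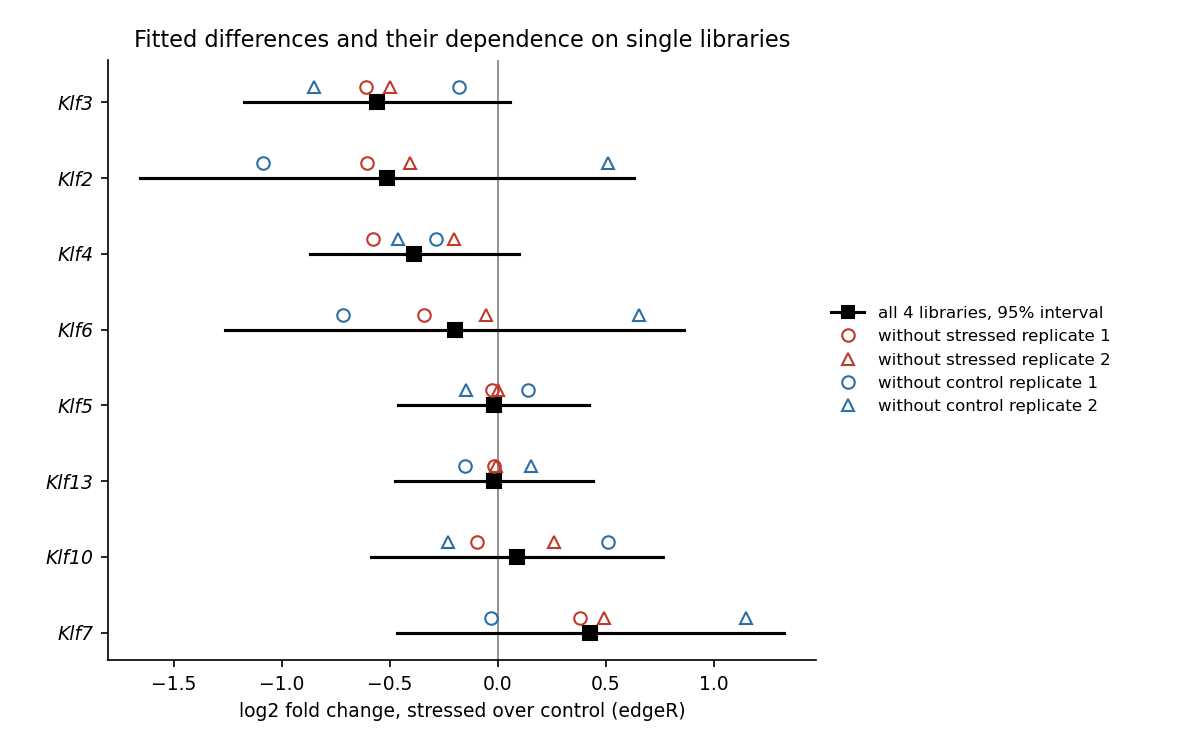
Fitted log2 fold change, stressed over control, of each gene with its 95% interval (black squares and lines, all 4 libraries), and the same value with 1 library left out (open symbols, coloured by the group of the library left out). All 8 intervals include 0. The values without either control library fall on opposite sides of 0 for every gene but Klf3 and Klf4, whose groups do not overlap.

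Klf3 (chromosome 5, 64803388-64832901), the CtBP-binding repressor, had 205 and 190 CPM in stressed cells and 356 and 225 CPM in control cells. Both stressed libraries lay below both controls, and stressed replicate 1 was close to control replicate 2. Means were 197 ± 10.6 CPM in stressed cells and 291 ± 92.6 CPM in control cells (SD, n = 2 each), for a log2 fold change of -0.56 (SE 0.26) and an interval from -1.18 to 0.057. The edgeR adjusted p was 0.432 (unadjusted p = 0.0684), with 15.8% of all tested genes at a smaller p. DESeq2 gave an adjusted p of 0.340 at an unadjusted p of 0.0421. Over all 15 alternatives the value lay between -0.85, without control replicate 2, and -0.18, without control replicate 1. Its sign stayed the same, but the groups do not overlap, so leaving out a library could not turn it.

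Klf4 (chromosome 4, 55527143-55532466), a reprogramming factor and a regulator of epidermal differentiation, had 97.9 and 75.7 CPM in stressed cells and 120 and 107 CPM in control cells. The groups did not overlap. Means were 86.8 ± 15.7 CPM in stressed cells and 113 ± 9.24 CPM in control cells, for a log2 fold change of -0.39 (SE 0.20) and an interval from -0.87 to 0.098 (edgeR adjusted p = 0.487). Over all 15 alternatives the value lay between -0.58, without stressed replicate 1, and -0.20, without stressed replicate 2. As for Klf3, leaving out a library could not turn the sign. Keratinocyte marker RNA, whose sums are given above, was lower in the stressed pair than in either control library, with 15 of 16 tested markers lower and a median log2 fold change of -0.94, which was -0.46 without control replicate 1. In sorted cells read in bulk, fewer cells of a type and less RNA per cell cannot be told apart. The part of keratinocyte RNA in the Klf3 and Klf4 values was not tested.

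Klf5 (chromosome 14, 99298691-99313405), which is expressed by proliferating basal epithelial cells, had 119 and 117 CPM in stressed cells and 131 and 108 CPM in control cells. The stressed pair lay inside the control range, and the log2 fold change of -0.018 had an SE of 0.18 and an interval from -0.46 to 0.42. Krt5 and Krt14, keratin genes of the basal layer, had values of -1.46 and -1.26 on the same scale. By DESeq2 Krt14 was at -1.25 with all 4 libraries and at -0.67 with control replicate 1 left out. The 16 keratinocyte markers ran from -1.51 for Krt15 to 1.23 for Krt6a by edgeR, with Itga6 at -0.30 and Dsg3 at -0.0043. The part of keratinocyte RNA in the Klf5 value was not tested.

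Klf10 (chromosome 15, 38294413-38300707), first described as a gene induced early by TGF-beta, had 119 and 93.4 CPM in stressed cells and 125 and 75.4 CPM in control cells, and the ranges overlapped. The log2 fold change was 0.088 (SE 0.28), with an interval from -0.59 to 0.76. Its sign turned under 4 of the 15 alternatives, all of which left out a library.

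Klf13 (chromosome 7, 63886351-63938915), known for its part in cytokine expression by T cells, had the closest stressed pair of the 8. It had 166 and 166 CPM in stressed cells and 150 and 186 CPM in control cells, with a log2 fold change of -0.018, an SE of 0.19 and an interval from -0.48 to 0.44.

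Of the other 18 KLF and SP genes in the files 13 passed the filter. EdgeR called 0, against 0% of all tested genes, and DESeq2 called 0, against 4.41%. In 12 of them the value was lower in stressed cells, against 50.9% of all tested genes. The median log2 fold change of these 13 was -0.37 by edgeR, -0.16 by limma-voom, -0.14 with the replicate block and -0.19 under a filter of 5 CPM. With control replicate 2 left out this median came to -0.097, and with stressed replicate 2 left out to -0.24. The most abundant by CPM were Klf9, a gene induced by glucocorticoid and thyroid hormones, with 228 and 191 CPM in stressed cells and 98.4 and 528 CPM in control cells, and Sp3, with 158 and 160 CPM in stressed cells and 159 and 183 CPM in control cells. Klf9 had the same order of libraries as Klf2 and Klf6, with the controls on either side of the stressed pair. Klf15, also glucocorticoid-induced in other tissues and named here after its values were seen, had 100 and 67.6 CPM in stressed cells and 59.6 and 178 CPM in control cells. Klf8, a close relative of Klf3 that also binds CtBP and was likewise named after its values were seen, had 5.63 and 5.27 CPM in stressed cells and 11.5 and 13.9 CPM in control cells. Its log2 fold change of -1.22 (SE 0.36) had an unadjusted edgeR p of 0.0143 and an adjusted p of 0.261 in edgeR and 0.163 in DESeq2. Klf17 and Sp8 had 0 counts in all 4 libraries.

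Among 18 upstream regulators of these factors, DESeq2 called 1 higher (1.75% of all tested genes) and 0 lower (2.67%). EdgeR called 0, or 1 higher with no low-count filter, beside 255 higher of 18926 genes in that setting. The median log2 fold change was 0.11, or 0.0067 with control replicate 1 left out and 0.22 with control replicate 2 left out. The called gene was Srf, which encodes the serum response factor of immediate early promoters. It had 110 and 108 CPM in stressed cells and 65.2 and 59.1 CPM in control cells (log2 fold change 0.81, SE 0.17, edgeR adjusted p = 0.155, DESeq2 adjusted p = 0.0138). The Srf call was lost without control replicate 2 and when stressed replicate 1 or 2 was left out, at log2 fold changes of 0.75, 0.81 and 0.83. Without either stressed library most calls over all genes were lost too. Smad4, the common mediator of TGF-beta signals, had 256 and 268 CPM in stressed cells and 204 and 230 CPM in control cells. Foxo1, known to induce Klf2 in lymphocytes, had 117 and 122 CPM in stressed cells and 130 and 171 CPM in control cells. Neither of these was called by edgeR or DESeq2. Of 11 tested cofactors 0 were called by either tool, against 0% of all tested genes by edgeR and 4.41% by DESeq2. The cofactor median was 0.099, or 0.18 with stressed replicate 1 left out. It was 0.061 with control replicate 1 left out and 0.23 with control replicate 2 left out. The CtBP gene Ctbp1 had 227 and 249 CPM in stressed cells and 202 and 216 CPM in control cells. Its paralogue Ctbp2, named after its values were seen, had 57.0 and 60.4 CPM in stressed cells and 27.96 and 37.3 CPM in control cells, with no overlap and a log2 fold change of 0.85 (SE 0.23, edgeR adjusted p = 0.235, DESeq2 adjusted p = 0.0669). The deacetylase gene Hdac2 had 192 and 211 CPM in stressed cells and 225 and 174 CPM in control cells.

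Of 18 genes described as targets of these factors in other cells 11 were tested. DESeq2 called 1 higher and 1 lower, against 1.75% and 2.67% of all tested genes. EdgeR called 0, or 2 higher and 1 lower of 14 with no low-count filter. In that setting 255 of 18926 genes were called higher and 505 lower. Lgals3, which encodes galectin-3 and is known as a gene repressed by KLF3 in mouse, had 2055 and 2911 CPM in stressed cells and 945 and 1045 CPM in control cells. By DESeq2 it rose by 1.33 on the log2 scale (SE 0.23, DESeq2 adjusted p = 4.12e-06). Without stressed replicate 2 it rose by 1.05 and was not called, in a setting where most calls over all genes were lost. Thbd, which encodes thrombomodulin and is a target of KLF2 in endothelial cells, had 4.41 and 4.64 CPM in stressed cells and 15.6 and 22.5 CPM in control cells. By DESeq2 it fell by 2.07 on the log2 scale with an SE of 0.47 (DESeq2 adjusted p = 0.000745). The Thbd call was lost without control replicate 2, at -1.78. It was also lost without stressed replicate 1 (-2.03) or stressed replicate 2 (-2.11), as were most calls over all genes. Txnip, a thioredoxin inhibitor gene, had 774 and 475 CPM in stressed cells and 530 and 1436 CPM in control cells, with overlapping groups. Cdkn1a, the p21 gene that several KLF proteins are known to induce, had 269 and 291 CPM in stressed cells and 393 and 280 CPM in control cells. S1pr1, Ccl5 and Gap43 had 0 counts in all 4 libraries.

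Other immediate early genes mostly had lower values in stressed than in control cells. Of 19 such genes 16 had lower values, 12 with groups that did not overlap (22.9% of all tested genes in that direction), and the median log2 fold change was -0.76. DESeq2 called 8 lower and 0 higher, against 2.67% and 1.75% of all tested genes. EdgeR called 0, or 9 lower with no low-count filter, beside 505 lower of 18926 genes in that setting. The edgeR median was -0.94 with control replicate 1 left out and -0.52 with control replicate 2 left out. It was -0.91 with stressed replicate 1 left out and -0.65 with stressed replicate 2 left out. The DESeq2 calls in the list were lost without stressed replicate 2, where most calls over all genes were lost too. Keratinocyte marker RNA was lower in stressed cells too, as given above, and its part in these values was not tested. The list summed to 16307 and 11597 CPM in stressed cells and to 20907 and 33416 CPM in control cells. Ier2 and Egr1, early genes of the growth factor response, fell by 1.07 and 0.96 on the log2 scale by DESeq2 (DESeq2 adjusted p = 0.000299 and 0.00123). Without stressed replicate 2 neither was called, at DESeq2 log2 fold changes of -0.89 and -0.75. Whether the 8 members differ from these genes was not tested. Fos and Jun, like Klf2 and Klf6, were highest in control replicate 2. Btg2, Egr2, Egr3, Fosl1, Ier2 and Nr4a1 were instead lower in control replicate 2 than in control replicate 1. Fos stood at 4836 and 3327 CPM in stressed cells and 5968 and 11391 CPM in control cells.

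**Figure D5:**
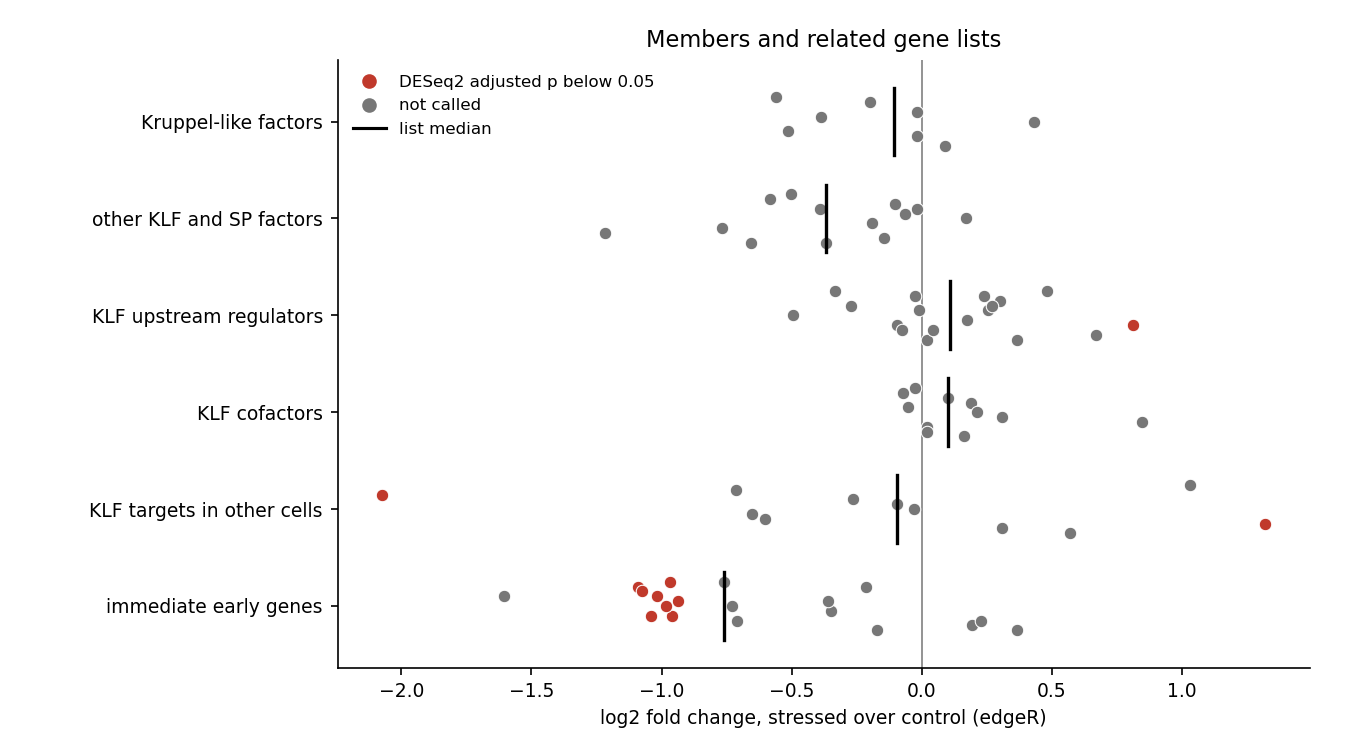
Fitted log2 fold change, stressed over control, of every tested gene in the 8-gene set and in 5 related lists; red points were called by DESeq2 at an adjusted p below 0.05, grey points were not, and black bars are list medians. The 8 members hold no call and have a median of -0.11. The immediate early genes have a median of -0.76 and 8 lower calls, against 2.67% of all tested genes. EdgeR called 0 in either list, and whether the 2 lists differ was not tested.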

How the data were processed

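Sorted melanocyte stem cells were profiled by RNA-seq in 2 stressed and 2 control libraries, made with the Smart-Seq V4 kit per the labels. The authors deposited raw read counts per gene. Per the file headers these were made with featureCounts 1.6.1 on mm10 alignments, summing exons by gene name with a minimum mapping quality of 30 and no strand or paired-end option. Trim Galore 0.4.1, STAR 2.5.3 and DESeq2 1.22.2 are named in the submitters' processing notes. Headers give the alignments of stressed replicates 1 and 2 the numbers 2 and 3, so replicate numbers may differ from those of the authors.

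Counts were tested in R 4.3.3 with edgeR 4.0.16 (filterByExpr with a minimum count of 10, TMM, quasi-likelihood F-test, two-sided, group as the only term). The SE is the size of the log2 fold change over the square root of F, and intervals use the t distribution with the fit's degrees of freedom. DESeq2 1.42.0 and limma-voom (limma 3.58.1) were alternatives, as were other scalings and filters, the replicate number as a block, and each library left out. A lone library is then assumed to vary like the other group. The tests were tested on simulated data. The 8 genes and the lists were chosen with earlier results of these data known. Genes of other lists were named if called by DESeq2 (up to 4 by p) or among the 2 most abundant, and values are given for those that bear on the 8. For some others the text says that they were chosen after their values were seen. This also holds for Cdkn1a, Krt6a, Itga6, Dsg3, Btg2, Egr3, Fosl1, Nr4a1 and the genes named at 0 counts. Likeness is the Euclidean distance between centred log2(CPM + 0.5) profiles over the 4 libraries, among genes of at least 10 CPM on average. No protein sequences were used here.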

Additional observations from a re-analysis of the deposited data

How the results depend on the processing

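Over all genes, edgeR called 0 and the count was 760 with no low-count filter and 589 by DESeq2. With 1 library left out it lay between 0 and 800 over edgeR and DESeq2. The number of Kruppel-like factors called stayed at 0 in the 7 alternatives that used all 4 libraries. It lay between 0 and 3 with 1 library left out, where only settings without a control library gave any call. Each setting that called a member also called genes over the whole set. The highest count of both kinds came from the same setting, DESeq2 without control replicate 2. The lone control library is there assumed to vary like the stressed pair, so these calls are not read as a difference between the groups. The median log2 fold change of the Kruppel-like factors lay between -0.12 and -0.021 with all 4 libraries. It lay between -0.22 and 0.0036 with 1 left out, and its sign turned without control replicate 2. Single members turned sign only with a library left out. Their ranges over these settings were -1.10 to 0.51 for Klf2, -0.15 to 0.14 for Klf5, -0.73 to 0.66 for Klf6, -0.039 to 1.15 for Klf7, -0.23 to 0.51 for Klf10 and -0.16 to 0.15 for Klf13. For Klf2, Klf5, Klf6, Klf10 and Klf13 both stressed libraries lay between the control libraries. Their sign without a control library therefore follows from which control library remains. The cause of the spread between the control libraries was not tested. The upstream regulators' median ranged from -0.00063 to 0.22, the fibroblast markers' from -1.29 to 1.51 and the immune cell markers' from -6.46 to 2.87 in the same settings. The fibroblast median of 0.14, over 4 genes, turned to -0.52 by limma-voom and to -0.37 with the replicate block.

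The labels number the libraries in each group but give no pairing. Deviations of replicate 1 from its group mean correlated between the groups at 0.172 over genes. With the replicate number as a block edgeR called 0 genes and 0 of the 8, and their median was -0.029. All 8 genes had at least 315 counts in every library, so the spread between libraries, more than counting error, set the width of the intervals.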

Other observations

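For each member, the 3 genes with the smallest distance between profiles over the 4 libraries were looked up among 9960 genes, as a description with no test. Nearest to Klf6 were Pxdc1 (distance 0.12), Hey2 (0.12), a Notch-induced repressor gene, and the metallothionein gene Mt2 (0.15). Mt2 had 273 and 224 CPM in stressed cells and 169 and 382 CPM in control cells. Nearest to Klf2 were Acad12 (0.14), Mapre3 (0.19) and Tmem2 (0.20), and nearest to Klf7 were Tnfsf9 (0.13), Faxc (0.15) and 9430020K01Rik (0.15). Nearest to Klf3 were Polb (0.042), a DNA repair polymerase gene, Vgll3 (0.054) and Atox1 (0.068), and Polb had 61.0 and 56.6 CPM in stressed cells and 103 and 66.3 CPM in control cells. Nearest to Klf4 were Xiap (0.040), an inhibitor of apoptosis gene, Upf3b (0.050) and Hint2 (0.058). Klf5, Klf10 and Klf13 had Mettl16 (0.019), Cdc26 (0.028) and Hnrnph3 (0.014) as their nearest genes. With 4 libraries many unrelated genes share a profile.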
